A study of Mus musculus with 106 samples.

Results

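The 40 genes described here encode the core machinery of autophagy, the cargo receptors that bring material to it, and 2 transcription factors of its genes. They were chosen by gene symbol from a list by role. All 40 were found among the 21897 protein-coding genes of the count table, which listed 55401 mouse genes. By role, the list held 5 genes of the initiation kinase complex, 6 of the class III phosphatidylinositol 3-kinase (PI3K) complexes, 6 of lipid supply and ATG9 vesicles, 6 of the conjugation system, 4 ATG4 proteases, 5 ATG8 proteins, 6 cargo receptors and adaptors, and the 2 factors.

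Autophagy encloses a piece of cytoplasm in a double membrane, the autophagosome, which fuses with a lysosome so that its content is degraded. A kinase complex starts the process, a lipid kinase marks the site, vesicles and lipid transfer build the membrane, and a ubiquitin-like conjugation system attaches ATG8 proteins to it, which in turn bind receptors that carry the cargo. Neurons do not divide and so cannot dilute damaged proteins and organelles, and mutant huntingtin, the protein behind Huntington's disease (HD), is itself a substrate of autophagy.

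The study sequenced 106 RNA libraries from 45 mice aged 9 months, 24 controls and 21 with the HD mutation, to compare what individual neuron types translate. Of these, 67 libraries held ribosome-bound mRNA that was immunoprecipitated (IP) through an HA-tagged ribosomal protein (RiboTag) switched on by Cre in 1 neuron type, and 39 held total RNA of the same tissue, one hemisphere of the cerebrum without the olfactory bulb, or the cerebellum. HD mice were heterozygous for a knock-in allele with a long CAG repeat (Hdh Q7/Q200) and controls were Hdh Q7/Q7. In the Gad2, PV and vGluT2 lines, whose breeding was described, mice were 129S4 congenic and carried 1 copy each of the Rpl22-HA allele and of a Cre driver. The breeding of the SST line was not described. Of its 5 IP controls 3 have mouse labels of another letter code than the 4 HD mice, and the part of this difference was not tested. The drivers were Gad2-IRES-Cre (GABAergic neurons), PV-IRES-Cre (parvalbumin neurons), vGluT2-IRES-Cre (glutamatergic neurons) and an SST-Cre line (somatostatin neurons), so each IP group held the cells in which its driver was active, and each PV library was pooled from duplicate IPs of 1 brain. In the cerebrum, IP libraries of control and HD mice numbered 6 and 6 (Gad2), 6 and 5 (PV), 5 and 4 (SST), and 6 and 6 (vGluT2); in the cerebellum they numbered 6 and 6 (Gad2), and 5 and 6 (vGluT2). The total RNA libraries came from 13 control and 12 HD cerebra over the 4 lines, and from 7 control and 7 HD cerebella, of which 3 and 3 came from the Gad2 line and 4 and 4 from the vGluT2 line.

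The deposited values were estimated read counts, summed per gene. A library held 21905238 to 107753596 counts, with a median of 35866734. Levels are given as CPM, counts scaled to a common library size with edgeR's TMM factors. The scarcest members, Atg4a and Tfeb, were at 0 in single libraries. Atg4a was at 0 in control replicate 5 of the cerebral Gad2 IPs, with 25849582 counts in all, where 3 counts, the limit a count of 0 allows, came to 0.116 CPM. Both Atg4a and Tfeb were at 0 in the re-sequenced HD library of the cerebral vGluT2 IPs, with 60611448 counts, where that limit was 0.0495 CPM. These limits cover counting error alone, and the cause of these values was not tested. In total 3 HD libraries, 1 each of the PV, cerebral vGluT2 and cerebellar Gad2 IPs, were re-sequenced with longer reads. Of the members, Wdr45 and Atg9a share exon sequence with another annotated gene on the same strand, and Becn1, Atg4d, Atg2b, Map1lc3b, Sqstm1, Atg9a, Uvrag, Optn, Rb1cc1, Tax1bp1, Wdfy3, Gabarapl1 and Atg14 with one on the opposite strand. Libraries were made with a stranded kit, but the strand setting of the counting was not stated. Reads of stretches shared on the same strand cannot be told apart by gene, and for the opposite strand this depends on that setting.

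Markers of the labelled cells were checked first, as mean CPM in control IPs against control total RNA of the same line. Gad1, which makes GABA, stood at 1521 against 328 CPM in the cerebral Gad2 line and at 1930 against 490.2 CPM in the cerebellar one. Pvalb stood at a median of 616 against 81.4 CPM in the PV line, and Sst at 1326 against 135 CPM in the SST line. The vesicular transporter Slc17a6, the gene behind vGluT2, stood at 114 against 33.1 CPM in cerebrum. In cerebellum, where 1 library reached 109 CPM, its medians were 24.5 and 10.1 CPM. In each IP group the marker of the labelled cells was thus above total RNA. Cerebellar vGluT2 IPs were led by granule-cell genes, with Gabra6 at 1271 against 509.5 CPM and Slc17a7 at 1361 against 600.3 CPM. In cerebellar Gad2 IPs the Purkinje-cell gene Pcp2 stood at 1412 against 504 CPM.

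RNA of glia remained in the IPs in unequal amounts. The summed level of 6 oligodendrocyte markers in control IPs had a median of 850.4 CPM for cerebral Gad2, 1997 for PV, 3204 for SST, 534 for cerebral vGluT2, 1079 for cerebellar Gad2 and 711.5 for cerebellar vGluT2, against 5489 in cerebral and 4501 in cerebellar total RNA. SST and PV IPs thus held the most oligodendrocyte RNA of the 6 groups. For 7 astrocyte markers the medians in the same order were 253, 518, 602, 209.6, 775 and 375 CPM, against 4204 and 3943 in total RNA. For 5 microglia markers they were 69.3, 49.7, 65.4, 12.1, 42.0 and 6.22 CPM, against 213 and 72.9. In bulk samples such as these, fewer cells of a type and less RNA per cell cannot be told apart.

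Libraries of the same group also stood apart by base composition. For each library, the log2 CPM of 13333 genes, taken as deviations from the mean over control and HD libraries of its line, region and preparation, was correlated across genes with the GC percent of the transcript. This GC index describes a library and is no test, since genes are not independent replicates. It ran from -0.81 to 0.78 over cerebral total RNA libraries. Over the members the median GC was 51.8%, against 50.4% over all genes, and the transcripts of Rb1cc1 (39.1%) and Atg10 (40.3%) were among the poorest in GC. In total RNA of the cerebellar vGluT2 line the index was -0.70, -0.61, -0.24 and -0.70 in the 4 controls and 0.64, 0.45, 0.67 and 0.38 in the 4 HD libraries. Genotype and base composition do not overlap there and cannot be told apart within that line. In the Gad2 line of the same tissue it was 0.43, -0.63 and 0.33 in controls and 0.19, 0.72 and -0.77 in HD libraries, which overlap.

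Levels between genes are given per length, as mean CPM per kb of exon sequence in each of the 6 control IP groups, with the lowest and highest group mean. All 40 members were read in every control IP group, over a range from 0.459 CPM per kb for Tfeb in cerebral vGluT2 IPs to 626 CPM per kb for Gabarapl1 in cerebral Gad2 IPs.

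**Figure D1:**
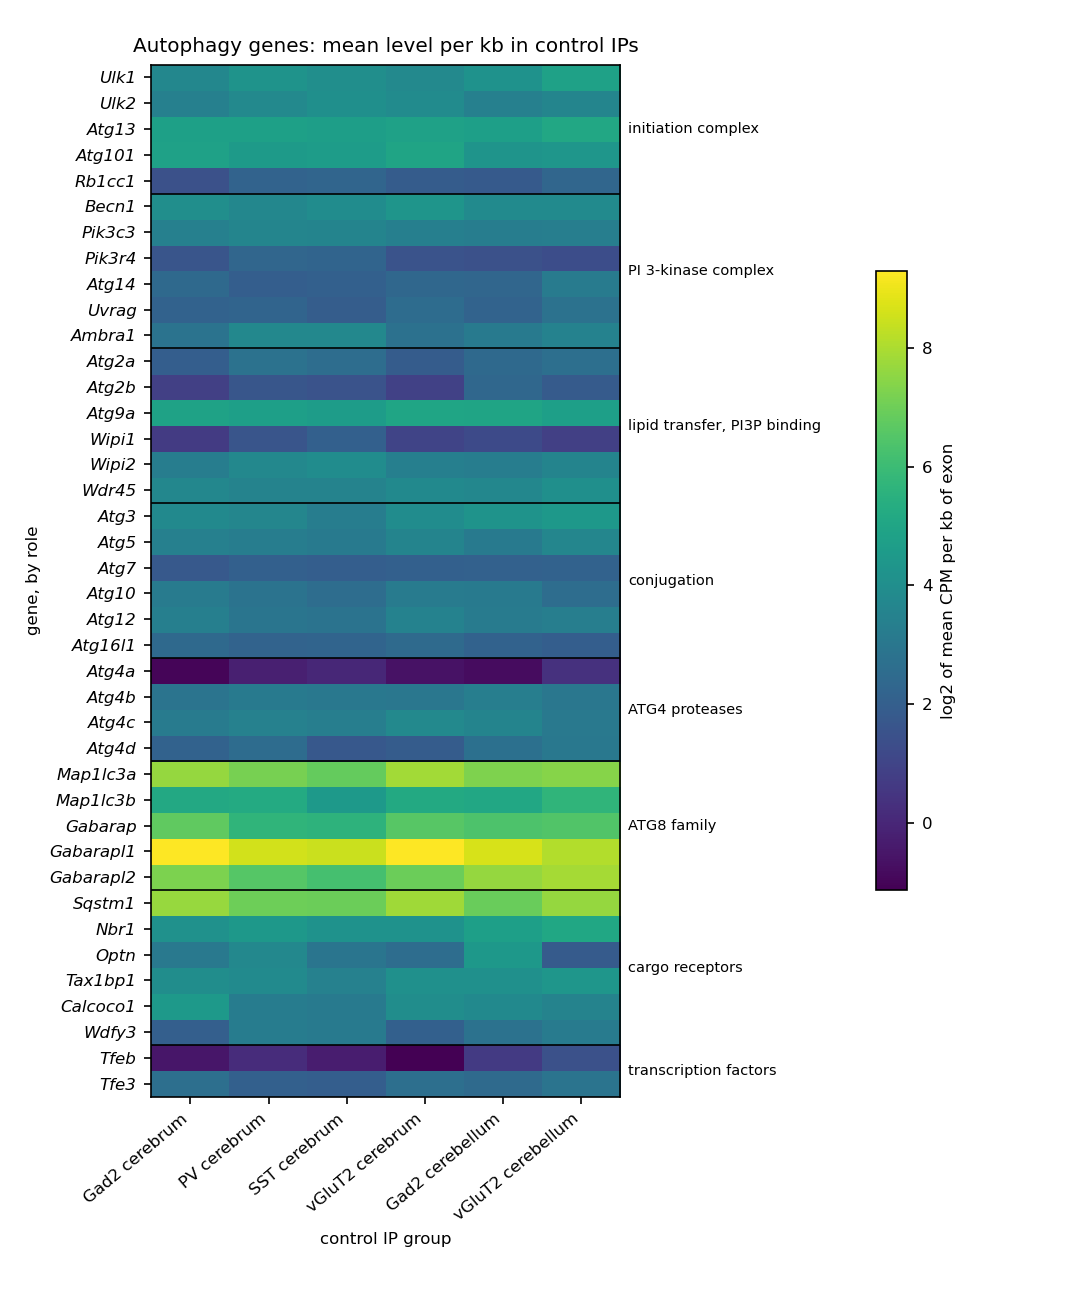
Mean level of each of the 40 members, ordered by role, in the 6 control IP groups, with color giving the log2 of the mean CPM per kb of exon. Gabarapl1 is brightest, between 274 and 626 CPM per kb before the log2, and Atg4a, at 0.505 to 1.30, is one of the 2 darkest in all 6 groups. Tfeb is the other in 5 groups, at 0.459 to 1.57, and in cerebellar vGluT2 IPs, where Tfeb stands at 2.77, it is Wipi1 at 1.79.

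Among the 5 genes of the initiation complex, Atg13, the scaffold that binds the kinase, ran from 26.5 to 34.6 CPM per kb over the 6 groups. Atg101, its stabilizing partner, ran from 19.0 to 31.0 CPM per kb. The kinase Ulk1 ran from 13.0 CPM per kb in cerebral Gad2 to 28.7 in cerebellar vGluT2 IPs. Its paralogue Ulk2 was steadier, between 10.6 and 16.6 CPM per kb. Rb1cc1, the large scaffold also called FIP200, was the lowest of the complex in all 6 groups, between 2.73 and 5.01 CPM per kb.

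In the PI3K complexes, the lipid kinase Pik3c3 (VPS34) stood at 9.85 to 12.2 CPM per kb, and its range of 0.31 log2 over the 6 groups was the narrowest of the 40 members. The regulatory subunit Becn1 stood at 13.1 to 19.5 CPM per kb. Pik3r4, the membrane anchor of the kinase, was lower, at 2.56 to 5.03 CPM per kb. The subunits that set the complex's task were also low per length: Atg14, which directs it to autophagosomes, at 3.92 to 9.13 CPM per kb, and Uvrag, which directs it to endosomes, at 3.86 to 6.95. Both Atg14 and Uvrag were highest in cerebellar vGluT2 IPs. Ambra1, a regulator that links Becn1 and ULK1, ran from 6.84 CPM per kb in cerebral vGluT2 to 13.4 in PV IPs.

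Among the genes of lipid supply, Atg9a, the scramblase of the seed vesicles, was the highest in each group, at 24.6 to 31.7 CPM per kb. The lipid-transfer proteins that join it stood lower, Atg2a at 3.70 to 6.93 CPM per kb and Atg2b at 1.80 to 5.18. Of the proteins that read the lipid mark, Wdr45 (WIPI4) ran from 11.4 to 16.5 CPM per kb. Wipi2, which recruits the conjugation enzyme, ran from 9.66 to 15.2, and Wipi1 from 1.62 in cerebral Gad2 to 4.16 in SST IPs. Wipi1 was thus the scarcest reader in each of the 6 groups.

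The conjugation system ran from 3.48 to 21.6 CPM per kb over its genes and the 6 groups. Atg3, the enzyme that hands ATG8 to the lipid, was the highest of its 6 genes in all 6 groups, at 9.72 CPM per kb in SST to 21.6 in cerebellar vGluT2 IPs. Atg5, a part of the ligase, ran from 8.78 to 12.6 CPM per kb, and Atg12, the ubiquitin-like protein joined to it, from 7.16 in SST to 11.3 in cerebral vGluT2 IPs. Atg10, the enzyme that transfers ATG12, ran from 6.04 to 9.25 CPM per kb, and Atg16l1, which places the ligase on the membrane, from 3.96 to 5.61. Atg7, the activating enzyme of both branches, ran from 3.48 to 4.38 CPM per kb, a range of 0.33 log2. Of the 4 proteases that trim and release ATG8, Atg4b stood at 7.42 to 9.92 CPM per kb, Atg4c at 8.48 to 13.7, Atg4d at 3.38 to 8.22 and Atg4a at 0.505 to 1.30.

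The ATG8 proteins were the most abundant of the 8 roles. Their summed level per kb was 1120 CPM in Gad2, 703 in PV, 609 in SST, and 1103 in vGluT2 IPs of the cerebrum, and 874 and 818 in Gad2 and vGluT2 IPs of the cerebellum. Gabarapl1, of the GABARAP branch, was the highest single gene in all 6 groups, and Map1lc3a (LC3A) came next among the ATG8 genes in the 4 cerebral groups, with 113 to 227 CPM per kb over all 6. Gabarapl2 ran from 73.7 in SST to 238 in cerebellar vGluT2 IPs, and Gabarap from 49.2 in SST to 107 in cerebral Gad2 IPs. Map1lc3b, whose protein is the usual marker of autophagosomes, was the lowest of the 5 in each group by this measure, at 22.9 to 51.0 CPM per kb. Its merged exons hold 7517 bases and its longest coding transcript 2633, against 1844 and 1351 for Gabarap. That rank thus depends on the length used and does not hold in every group per transcript length.

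Of the receptors, Sqstm1 (p62), which binds ubiquitin and LC3, was highest in each of the 6 groups, at 119 to 223 CPM per kb. Nbr1, its partner in aggregates, ran from 17.7 to 34.3 CPM per kb. Tax1bp1, a receptor for ubiquitin-marked aggregates, ran from 11.0 to 20.4, and Calcoco1, a receptor for the endoplasmic reticulum and Golgi, from 8.90 in SST to 22.9 in cerebral Gad2 IPs. Optn, a receptor for mitochondria and aggregates, ran from 3.69 in cerebellar vGluT2 to 21.8 in cerebellar Gad2 IPs. Wdfy3 (ALFY), the adaptor that carries aggregates to the membrane, ran from 4.09 to 9.50 CPM per kb. Of the factors that switch on lysosome and autophagy genes, Tfe3 stood at 3.95 to 7.47 CPM per kb and Tfeb at 0.459 to 2.77, and Tfe3 was above Tfeb in each group.

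The 6 members with the widest range of group means over control IPs were Tfeb, Optn, Gabarapl2, Atg2b, Atg4a and Calcoco1. Tfeb (ENSMUSG00000023990.18, chromosome 17, bases 47737030 to 47792419 of GRCm38) spanned 2.59 log2. In cerebral vGluT2 IPs its 6 control libraries had a lowest, median and highest level of 1.93, 2.48 and 3.70 CPM, while the 5 cerebellar vGluT2 libraries read 20.7, 10.8, 14.9, 18.7 and 13.5 CPM. Every cerebellar library of that driver was above every cerebral one. The other groups lay between, with medians of 4.01 CPM in cerebral Gad2, 6.21 in PV, 4.45 in SST and 8.89 in cerebellar Gad2 IPs.

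Optn (ENSMUSG00000026672.11, chromosome 2, bases 5020642 to 5064051) spanned 2.56 log2, with its extremes inside 1 tissue. Cerebellar Gad2 controls ran from 73.1 over a median of 81.4 to 92.2 CPM, and the 5 cerebellar vGluT2 controls read 10.6, 17.1, 14.2, 11.5 and 15.8 CPM. These groups lay far apart without overlap. In the cerebrum PV controls were highest, from 43.8 over 48.7 to 60.9 CPM, above all controls of the other cerebral groups. Cerebral Gad2 had a median of 33.2, SST of 29.2 and cerebral vGluT2 of 23.3 CPM.

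Gabarapl2 spanned 1.69 log2. The 5 SST controls read 174, 201, 174, 160.4 and 147 CPM, and the 5 cerebellar vGluT2 controls 696, 454, 621, 518 and 478 CPM. Both cerebellar groups lay high, cerebellar Gad2 from 386 over 423 to 604 CPM. Cerebral Gad2 and vGluT2 had medians of 348 and 293 CPM, and PV of 221 CPM.

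Atg2b spanned 1.52 log2 and was low in cerebral Gad2 controls, from 16.4 over 25.0 to 29.5 CPM. In cerebellar Gad2 controls it ran from 36.4 over 73.2 to 97.1 CPM, above all of them. Calcoco1 spanned 1.36 log2 and was highest in cerebral Gad2 controls, from 89.6 over 137 to 166 CPM, while the 5 SST controls read 46.1, 38.7, 60.9, 67.3 and 42.0 CPM. Those groups did not overlap. Atg4a spanned 1.37 log2 at a low level: cerebral Gad2 controls ran from 0 over 1.51 to 2.04 CPM and the 5 cerebellar vGluT2 controls read 3.80, 4.17, 2.95, 2.91 and 3.48 CPM.

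**Figure D2:**
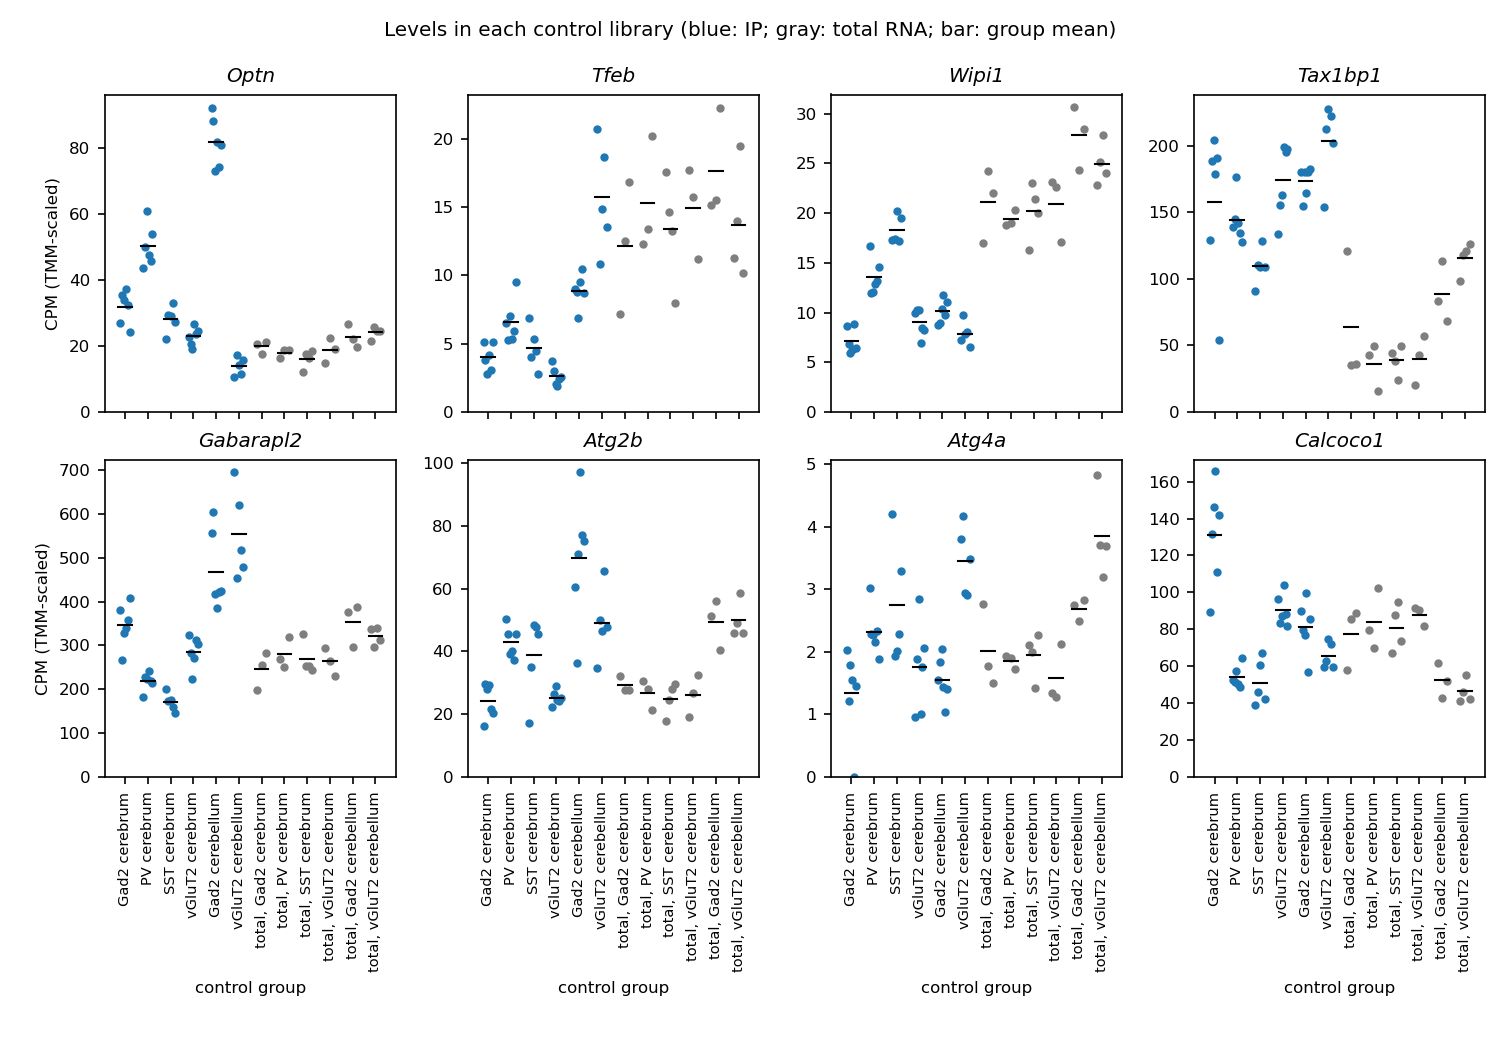
Level in TMM-scaled CPM of 8 members in each control library, by IP group (blue) and total RNA of each line and region (gray); each point is 1 library and each bar a group mean. Among IPs, Tfeb lies highest in cerebellar vGluT2 (median 14.9 CPM) and Optn in cerebellar Gad2 IPs (median 81.4 CPM).

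Enrichment in each neuron type was asked by comparing control IPs with control total RNA of the region, in a single edgeR fit over all 54 control libraries with 14759 genes tested. Genes are called at a Benjamini-Hochberg adjusted p of 0.05 or less from edgeR's quasi-likelihood test. The 4 cerebral comparisons share their total RNA libraries, as do the 2 cerebellar ones. Most total RNA libraries came from mice that also gave an IP library, and the fit treated these libraries as independent. The mouse was not used as a block in these comparisons. In cerebral Gad2 IPs 14 members were called higher and 12 lower, beside 32.3% and 31.7% of all genes, and against total RNA of the same line alone 7 and 8, beside 41.4% of genes called in either direction. In PV IPs 13 were higher and 11 lower, beside 31.8% and 35.5%. In SST IPs 13 were higher and 12 lower, beside 29.7% and 33.5%. In cerebral vGluT2 IPs 14 were higher and 12 lower, beside 34.4% and 30.0%. In each of the cerebral groups the members' shares were thus near those of all genes.

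In cerebellar Gad2 IPs 13 members were higher and 8 lower, beside 27.2% and 30.7% of all genes. The split there moves with scaling. Without TMM, where the median of all genes was -0.14 log2, 3038 genes were higher and 5184 lower (4014 and 4533 with TMM). Of the members 8 were then higher and 11 lower. Members lower numbered 5 instead of 8 without control replicate 2 or 5 of the group, without total RNA control 1 or 3 of the PV line, 1, 2 or 3 of the SST line, or 1 of the cerebral vGluT2 line, all of which share the fit. In SST and PV comparisons leaving out TMM moved the median of all genes as well, to 0.13 and 0.07 log2. Genes higher were then 5509 and 5443 (4380 and 4693 with TMM), and genes lower 3500 and 4334 (4946 and 5236). Of the members 17 and 16 were higher and 11 and 9 lower. In cerebellar vGluT2 IPs 14 were higher and 2, Wipi1 and Optn, lower, beside 26.0% and 30.1%, and the median of the 40 members was 0.21 log2 against 0.02 over all genes. Glial markers moved with all 6 comparisons. Of 7 astrocyte markers 7, 6, 6, 7, 7 and 7 were lower in the IPs, in the order of groups above. Of 6 oligodendrocyte markers 6, 4, 4, 6, 6 and 6 were lower and 1 higher, in SST IPs, and of 5 microglia markers 5, 5, 5, 5, 4 and 5. None of these markers was at 0 in a control library, and the most abundant were Apoe, Mbp and Csf1r in total RNA. Their part in the members' levels was not tested.

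Base composition moved with the cerebral comparisons as well. Across genes the log2 ratio of IP to total RNA correlated with GC percent at -0.36 in cerebral Gad2, -0.42 in PV, -0.48 in SST and -0.36 in cerebral vGluT2, and near 0 in cerebellar IPs (-0.05 and -0.09). With log2 transcript length it correlated at 0.13, 0.40, 0.49 and 0.17 in the same cerebral groups, and at 0.04 in cerebellar vGluT2 IPs. Among the members highest in cerebral IPs over total RNA, Tax1bp1, Rb1cc1, Atg10 and Atg3 have transcripts of 42.2%, 39.1%, 40.3% and 44.8% GC, while Optn, at 1.53 log2 in PV IPs, has one of 50.65%. The 5 ATG8 genes have transcripts of 1112 (Map1lc3a) to 2633 bases (Map1lc3b). Of them 4 were called lower in PV and 5 in SST IPs, with 0 higher, beside 35.5% and 33.5% of all genes lower. In cerebral Gad2 IPs 2 were higher and 2 lower, and in cerebral vGluT2 IPs 1 was higher and 2 lower. The part of GC and of length in these ratios was not tested, nor in the summed ATG8 levels given above.

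Wipi1 was called lower in IPs than in total RNA in 5 of the 6 groups. In cerebral total RNA its 13 controls ran from 16.2 over 20.3 to 24.2 CPM, and cerebral Gad2 controls from 5.89 over 6.65 to 8.82 CPM, with no overlap. Its log2 ratio was -1.52 ± 0.11 there (SE; adjusted p 1.61e-16, lower in 6 of 6 IPs). In cerebral vGluT2 IPs, from 6.98 over 9.18 to 10.3 CPM, it was -1.18 ± 0.10 (adjusted p 1.49e-13, 6 of 6). The cerebellum showed the same side. Against total RNA from 22.9 over 25.2 to 30.7 CPM, cerebellar Gad2 controls ran from 8.75 over 10.1 to 11.7 CPM, a log2 ratio of -1.44 ± 0.11 (adjusted p 1.18e-14, 6 of 6). Cerebellar vGluT2 controls read 7.28, 9.73, 7.85, 7.99 and 6.57 CPM, a log2 ratio of -1.85 ± 0.12 (adjusted p 4.15e-17, 5 of 5). SST IPs stood apart from these groups, with Wipi1 at 17.4, 17.3, 20.2, 17.2 and 19.5 CPM, inside the range of total RNA, and a log2 ratio of -0.09 that was not called.

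Tfeb was also lower in cerebral IPs than in total RNA, where its 13 controls ran from 7.17 over 13.3 to 20.2 CPM. Cerebral vGluT2 controls, from 1.93 over 2.48 to 3.70 CPM, lay wholly under them, at a log2 ratio of -2.40 ± 0.20 (adjusted p 2.53e-14, lower in 6 of 6). Of the other cerebral groups PV alone overlapped total RNA. For cerebral Gad2, from 2.76 over 4.01 to 5.13 CPM, it was -1.78 ± 0.19 (adjusted p 6.44e-11, 6 of 6). The SST controls, at 3.99, 6.91, 5.33, 4.45 and 2.81 CPM, were likewise all under total RNA, at -1.49 ± 0.20 (adjusted p 4.19e-08, 5 of 5). PV controls, from 5.23 over 6.21 to 9.51 CPM, overlapped it and stood at -1.004 ± 0.18 (adjusted p 6.69e-06). Gabarap, an ATG8 gene, was lower in PV and SST IPs. Against total RNA from 145 over 262 to 391 CPM, PV controls ran from 80.8 over 96.4 to 112 CPM, a log2 ratio of -1.35 ± 0.14 (adjusted p 1.51e-11, 6 of 6). SST controls read 92.8, 124, 99.5, 81.5 and 55.3 CPM, all under total RNA, a log2 ratio of -1.42 ± 0.15 (adjusted p 8.75e-11).

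Tax1bp1 was the member with the highest ratio in cerebral Gad2, PV and cerebral vGluT2 IPs. In cerebral total RNA its 13 controls were widely spread, from 15.5 over 42.8 to 121 CPM. Cerebral vGluT2 controls ran from 134 over 179 to 199 CPM, all above total RNA, at a log2 ratio of 1.98 ± 0.22 (adjusted p 5.69e-11). Cerebral Gad2 controls had a median of 184 and a highest of 204 CPM but 1 library at 54.0 CPM, inside the range of total RNA, and a log2 ratio of 1.83 ± 0.22 (adjusted p 5.65e-10). For PV, from 127 over 141 to 177 CPM, it was 1.77 ± 0.22 (adjusted p 1.48e-09, higher in 6 of 6). The 5 SST controls, at 110.4, 90.9, 109, 129 and 109 CPM, overlapped total RNA and gave 1.38 ± 0.23 (adjusted p 1.57e-06).

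Rb1cc1, the scaffold of the kinase complex, was also higher in SST, PV and cerebral vGluT2 IPs. Total RNA ran from 6.64 over 18.2 to 66.0 CPM, PV controls from 39.9 over 74.0 to 78.5 CPM, and cerebral vGluT2 controls from 27.1 over 60.1 to 68.6 CPM. Both IP groups overlapped total RNA, which was widely spread. Its log2 ratio was 1.82 ± 0.27 in SST (adjusted p 1.48e-07), where controls read 65.5, 51.8, 56.3, 81.1 and 105 CPM. In PV it was 1.74 ± 0.26 (adjusted p 9.84e-08), and in cerebral vGluT2 IPs 1.37 ± 0.26 (adjusted p 8.81e-06), and all IP libraries of these groups were above the median of total RNA.

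Of the conjugation genes, Atg10 was higher in IPs. Total RNA ran from 3.34 over 6.12 to 11.6 CPM and cerebral Gad2 controls from 13.4 over 15.1 to 19.1 CPM, above all of it, at a log2 ratio of 1.34 ± 0.16 (adjusted p 9.58e-10). Cerebral vGluT2 controls, from 11.4 over 15.3 to 22.1 CPM, gave 1.36 ± 0.16 (adjusted p 4.97e-10), and PV, from 9.10 over 12.4 to 14.5 CPM, 1.05 ± 0.16 (adjusted p 2.66e-07). Every one of these IP libraries was above the median of total RNA. Atg3 in cerebral vGluT2 IPs, from 43.1 over 46.3 to 55.9 CPM, lay above all of total RNA, from 14.2 over 23.2 to 36.5 CPM, with a log2 ratio of 1.01 ± 0.12 (adjusted p 2.17e-10).

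Optn was furthest above total RNA in PV and cerebellar Gad2 IPs. PV controls, from 43.8 to 60.9 CPM, were above all 13 cerebral total RNA controls, from 12.3 over 18.4 to 22.4 CPM, at a log2 ratio of 1.53 ± 0.10 (adjusted p 1.45e-17). Cerebellar Gad2 controls, from 73.1 to 92.2 CPM, were above all of cerebellar total RNA, from 19.7 over 24.4 to 26.6 CPM, at 1.74 ± 0.12 (adjusted p 1.46e-16). In cerebellar vGluT2 IPs the sign was the opposite, at -0.87 (adjusted p 1.32e-07, lower in 5 of 5), a member chosen for mention after its values were seen. Atg4a was lower in cerebellar Gad2 IPs, from 1.03 over 1.49 to 2.05 CPM, than in total RNA, from 2.50 over 3.19 to 4.83 CPM, at -1.11 ± 0.32 (adjusted p 0.00313, 6 of 6).

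Cell types were then set against each other within and between regions, in the same fit. Cerebral vGluT2 against Gad2 IPs called 5 members higher and 3 lower, beside 14.4% and 14.8% of all genes. Without TMM 2 members were higher and 4 lower, beside 1690 and 2552 of all genes (2122 and 2191 with TMM). With DESeq2's size factors they were 4 and 4, beside 1995 and 2309, so the split depends on scaling. These members, named after their values were seen, were Atg4c at 0.58, Ulk2 at 0.50, Uvrag at 0.42, Wipi1 at 0.35 and Becn1 at 0.29 log2, and lower Tfeb at -0.62, Calcoco1 at -0.53 and Optn at -0.46 log2. The count rests on single libraries too: it was 5 instead of 8 without control Gad2 replicate 6 or control vGluT2 replicate 3. Members higher were 3 without Gad2 control replicate 2, 3 or 6, or without vGluT2 control replicate 2 or 3.

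Within the cerebellum, vGluT2 against Gad2 IPs called 12 members higher and 8 lower, beside 26.6% and 29.1% of all genes. Optn was lower by far, at -2.60 ± 0.14 log2 (adjusted p 2.55e-21, 5 of 5 libraries under all Gad2 controls). Atg4a was higher, at 1.11 ± 0.34 log2 (adjusted p 0.00555), and all 5 vGluT2 libraries were above all 6 Gad2 libraries.

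Between regions the control IPs of a line came from the same mice, all 6 in the Gad2 line and 5 of 6 in the vGluT2 line. Cerebellar against cerebral Gad2 IPs called 14 members higher and 7 lower, beside 26.0% and 27.3% of all genes. Without TMM these were 10 and 8 members, beside 3213 and 4516 of all genes (3838 and 4032 with TMM). With the mouse as a block they were 13 and 6, beside 51.7% of genes called in either direction. Highest in ratio were Atg2b at 1.52 ± 0.20 (adjusted p 6.37e-09), Optn at 1.36 ± 0.12 (adjusted p 2.23e-13) and Tfeb at 1.14 ± 0.21 log2 (adjusted p 9.44e-06). For each of these genes, all 6 cerebellar libraries were above all 6 cerebral ones.

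Cerebellar against cerebral vGluT2 IPs called 13 members higher and 9 lower, beside 28.6% and 32.2%, and with the mouse as a block 14 and 11, beside 63.5% in either direction. Tfeb differed most, at 2.53 ± 0.22 log2 (adjusted p 8.19e-14). Ulk1 read 194, 152, 200.4, 214 and 170.2 CPM in cerebellar vGluT2 controls against 76.7 over 88.9 to 104 CPM in cerebral ones, a log2 ratio of 1.01 ± 0.11 (adjusted p 8.40e-11). Atg4d read 72.6, 45.6, 60.6, 63.4 and 56.2 CPM against 22.7 over 25.4 to 34.6 CPM, a ratio of 1.07 ± 0.14 log2 (adjusted p 5.43e-09). Neither gene overlapped between the regions. Wdfy3 read 89.8, 134, 128, 218 and 140.1 CPM against 46.1 over 65.5 to 75.3 CPM, a log2 ratio of 1.09 ± 0.22 (adjusted p 2.20e-05). Gabarapl1, the most abundant member per kb, went the other way, at 627, 516, 608, 478 and 528 CPM against 1162 over 1224 to 1455 CPM, a log2 ratio of -1.24 ± 0.11 (adjusted p 1.93e-14), again without overlap.

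Glial markers differed between these IP groups as well. In cerebral vGluT2 against Gad2 IPs 5 of 5 microglia markers were lower, with a median of -2.77 log2, as were 5 of 6 oligodendrocyte markers, while of 7 astrocyte markers 1 was higher and 3 lower. In vGluT2 against Gad2 IPs of the cerebellum 5 of 5 microglia, 5 of 7 astrocyte and 3 of 6 oligodendrocyte markers were lower. Between regions, Gad2 IPs of the cerebellum had 5 astrocyte markers higher and 1 lower, 4 microglia markers lower and 1 oligodendrocyte marker higher. For vGluT2 IPs these were 3 astrocyte markers higher and 1 lower, 3 microglia markers lower and 2 oligodendrocyte markers higher. The part of glial RNA in the 4 contrasts was not tested.

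The main question of the study was whether HD changes the mRNA of each neuron type. HD and control IPs were compared within each group, with all 40 members tested in each.

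**Figure D3:**
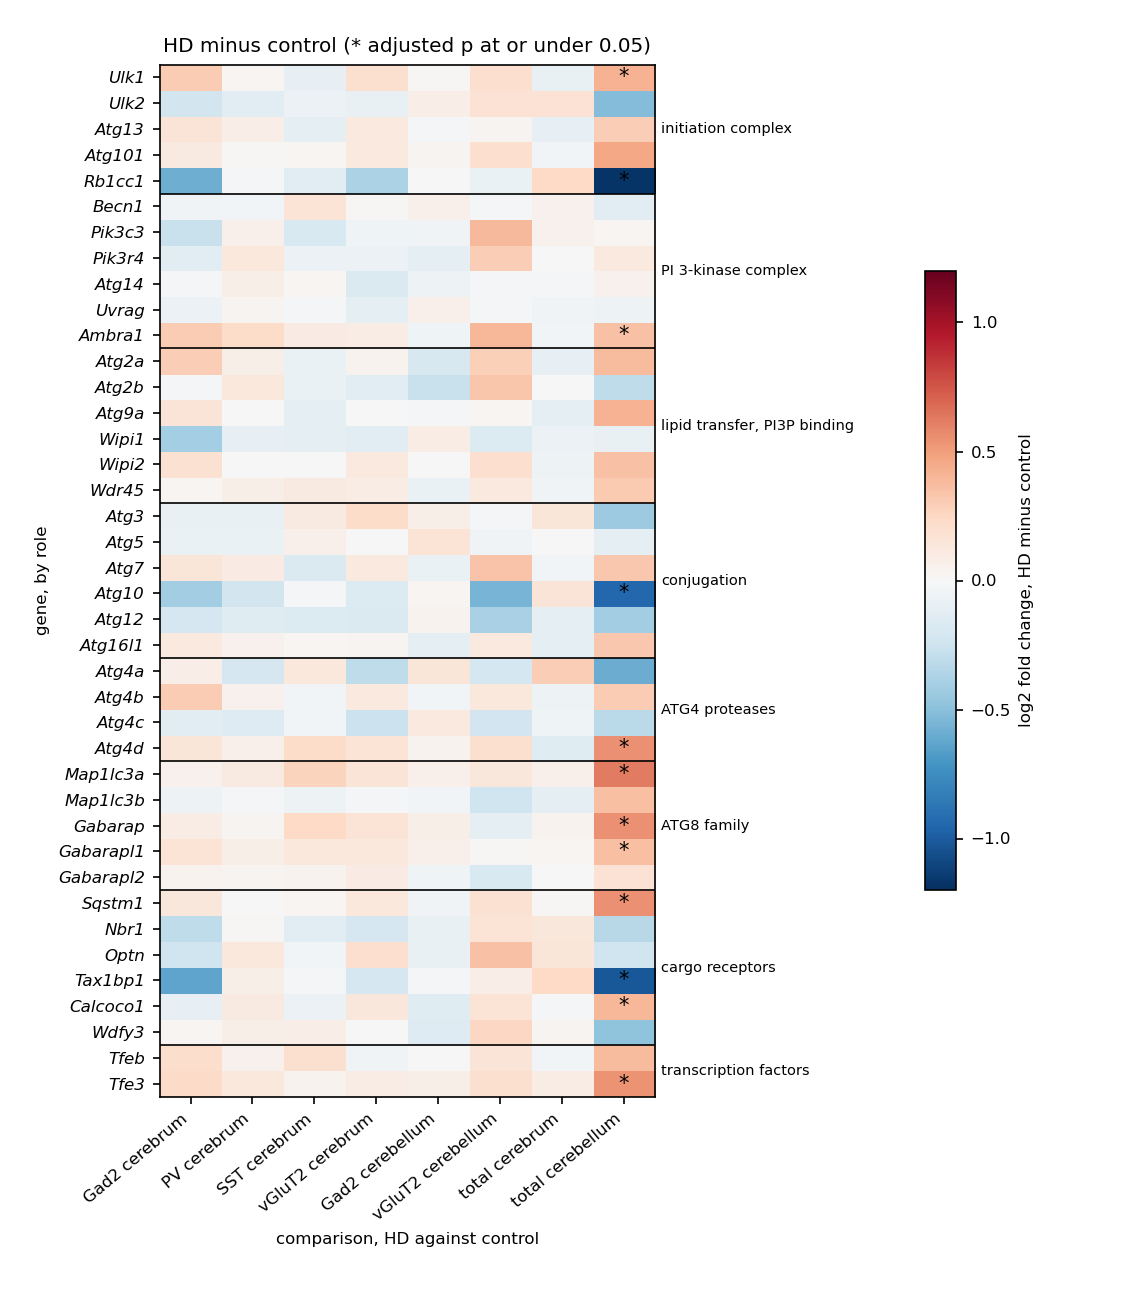
Log2 fold change of HD against control (color scale) for each of the 40 members, one per line and ordered by role, in the 6 IP groups and in total RNA of each region; a star marks an edgeR adjusted p of 0.05 or less. Stars stand in the column of cerebellar total RNA alone, on 12 members between -1.17 and 0.63 log2.

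In cerebral Gad2 IPs edgeR called 0 of 40 members, beside 0.0279% of 14342 genes. By unadjusted p under 0.05 there were 4, Atg4b and Ulk1 higher and, named after their values were seen, Atg10 and Wipi1 lower, beside 9.15% of genes, and DESeq2 called 0. The median fold change of the members was 0.03 log2 and that of all genes -0.01. Atg4b, the main ATG4 protease, ran from 55.4 over 60.5 to 71.1 CPM in controls and from 61.3 over 80.2 to 88.8 in HD, a fold change of 0.30 ± 0.10 log2 (adjusted p 0.536, 6 of 6 above the control median). The groups overlapped. Ulk1 ran from 74.0 over 80.9 to 95.9 CPM in controls and from 87.5 over 106 to 128 in HD, at 0.30 ± 0.10 log2 (adjusted p 0.536, 6 of 6). The GC index had a median of -0.38 in these controls and 0.35 in HD libraries, and across genes the fold change correlated with GC percent at 0.42. With the index as a covariate, Atg4b stood at 0.19 and Ulk1 at 0.18 log2 (adjusted p 0.854 and 0.848).

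In PV IPs edgeR called 0 members, beside 0.034% of 14713 genes, with 0 at unadjusted p under 0.05 and 0 by DESeq2. Ambra1 ran from 72.2 over 78.7 to 94.7 CPM in controls and from 83.2 over 91.1 to 112 in HD, a fold change of 0.22 ± 0.10 log2 with overlap (adjusted p 0.9999, 5 of 5 above the control median). Atg12 ran from 52.9 over 57.04 to 68.8 CPM in controls and read 55.3, 54.2, 59.2, 56.4 and 44.9 CPM in HD, at -0.15 ± 0.10 log2, and these groups overlapped as well.

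In SST IPs edgeR called 0 members, beside 0.0% of 14689 genes, with 0 at unadjusted p under 0.05 and 0 by DESeq2. Atg12 read 53.5, 58.9, 46.8, 54.7 and 62.2 CPM in controls and 52.9, 53.8, 45.0 and 44.1 in HD, a fold change of -0.17 ± 0.15 log2. Gabarap read 92.8, 124, 99.5, 81.5 and 55.3 CPM in controls and 90.1, 93.4, 86.5 and 156 in HD, at 0.24 ± 0.23 log2. Its higher HD mean thus rested on 1 HD library.

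In cerebral vGluT2 IPs edgeR called 0 members, beside 0.00697% of 14354 genes, with 0 at unadjusted p under 0.05 and 0 by DESeq2. Nbr1 ran from 112 over 125 to 133 CPM in controls and from 87.1 over 111 to 121 in HD, a fold change of -0.20 ± 0.09 log2 (adjusted p 0.677, 6 of 6 under the control median). Atg12 ran from 70.9 over 89.6 to 99.4 CPM in controls and from 71.5 over 78.1 to 81.9 in HD, at -0.18 ± 0.10 log2 (adjusted p 0.687, 6 of 6). Both genes overlapped between genotypes. Across genes the fold change correlated with GC percent at 0.27, and with the GC index as a covariate Nbr1 stood at -0.18 and Atg12 at -0.08 log2 (adjusted p 0.842 and 0.928).

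In cerebellar Gad2 IPs edgeR called 0 members, beside 0.0142% of 14098 genes, with 0 at unadjusted p under 0.05 and 0 by DESeq2. Atg5 ran from 13.6 over 21.99 to 24.7 CPM in controls and from 21.7 over 23.1 to 27.0 in HD, a fold change of 0.17 ± 0.13 log2. Atg2b ran from 36.4 over 73.2 to 97.1 CPM in controls and from 41.8 over 61.6 to 74.5 in HD, at -0.27 ± 0.22 log2. The HD values of both lay largely inside the control range. Without its re-sequenced HD library edgeR called 0 members in this group, in PV and in cerebral vGluT2 IPs, beside 0.0%, 0.0275% and 0.00697% of genes, with 0, 1 and 1 at unadjusted p under 0.05, and DESeq2 was not run without them.

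In cerebellar vGluT2 IPs, the group with the most genes called among the IPs, edgeR called 0 of 40 members, beside 2.11% of 13487 genes. By unadjusted p under 0.05 there were 5, Atg12 and Atg10 lower and, named after their values were seen, Pik3c3 at 0.39, Ambra1 at 0.39 and Atg7 at 0.34 log2 higher, beside 15.5% of genes, and DESeq2 called 1, Atg12, beside 4.93% of genes. The median over the members was 0.12 log2, against -0.01 over all genes.

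Atg12 came nearest to the threshold of all members in the IPs. Its 5 controls read 92.1, 83.4, 67.3, 73.7 and 71.2 CPM, and its 6 HD libraries ran from 55.0 over 56.8 to 65.6 CPM. Every HD library was under every control. The fold change was -0.39 ± 0.10 log2 by edgeR (adjusted p 0.0651) and -0.40 by DESeq2 (adjusted p 0.00842). With the GC index as a covariate, an alternative chosen after the data were seen, it was -0.40 by edgeR (adjusted p 0.0304), beside 4.7% of genes called. Other scalings and no filter gave adjusted p values of 0.0606 to 0.0976, pairing libraries by replicate number as a block gave 0.1795, and leaving out 1 library gave 0.0516 to 0.165, highest without control replicate 1. Atg12 is thus a member whose call depends on the tool. In the other IPs its fold change was -0.20 in cerebral Gad2, -0.15 in PV, -0.17 in SST, -0.18 in cerebral vGluT2 and 0.04 log2 in cerebellar Gad2, none of them called.

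Its enzyme Atg10 read 11.6, 12.0, 9.73, 7.66 and 10.8 CPM in cerebellar vGluT2 controls and ran from 4.06 over 6.55 to 10.2 in HD. Of the 6 HD libraries 4 were under all controls. The fold change was -0.56 ± 0.21 log2 (adjusted p 0.233).

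In some IP groups the glial markers of a list all lay on one side in HD against control, each at an adjusted p over 0.05. In cerebral Gad2 IPs all 5 microglia markers had a positive log2 fold change, with a median of 0.58, and in cerebellar Gad2 IPs all 5 had a negative one, with a median of -0.37. In PV IPs all 6 oligodendrocyte and all 7 astrocyte markers had a negative one, with medians of -0.32 and -0.27, as had the 6 oligodendrocyte markers in cerebellar Gad2 IPs, with a median of -0.16. The part of glial RNA in the members' fold changes was not tested.

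Whether the HD effect differed between cell types or regions was tested directly. For cerebellar vGluT2 minus Gad2 IPs edgeR called 0 members, beside 0.107% of 13971 genes, with 6 at unadjusted p under 0.05, beside 7.08% of genes, and 0 by DESeq2. The difference for Atg12 was -0.46 ± 0.18 log2 (adjusted p 0.575). For cerebellar minus cerebral vGluT2 IPs edgeR called 0 members, beside 0.323% of 14253 genes, with 3 at unadjusted p under 0.05, beside 7.45% of genes, and 0 by DESeq2. Those 3, named after their values were seen, were Atg2b at 0.48, Pik3c3 at 0.46 and Nbr1 at 0.38 log2, and Atg12 stood at -0.20 ± 0.13 (adjusted p 0.817). The libraries of both regions came from the same mice, but for 1 control, and with the mouse as a block edgeR again called 0, beside 0.217% of genes, with 3 at unadjusted p under 0.05, and DESeq2 was not run with it. A difference of the HD effect on a member was therefore not detected between these groups, and other pairs of IP groups were not tested.

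In cerebral total RNA, with the Cre line as a covariate, edgeR called 0 members, beside 0.645% of 14880 genes, with 0 at unadjusted p under 0.05 and 0 by DESeq2. Atg4a ran from 1.27 over 1.90 to 2.76 CPM in controls and from 1.43 over 2.43 to 3.19 in HD, a fold change of 0.30 ± 0.16 log2 (adjusted p 0.809, 8 of 12 above the control median). Optn ran from 12.3 over 18.4 to 22.4 CPM in controls and from 14.2 over 20.1 to 27.1 in HD, at 0.14 ± 0.09 log2 (adjusted p 0.920, 9 of 12). Both overlapped almost fully. Across genes the fold change correlated with GC percent at -0.35, and with the GC index as a covariate edgeR called 0 members, beside 2.67% of genes, with 4 at unadjusted p under 0.05, and DESeq2 was not run with it. Of the glial markers 1 was called there, the astrocyte transporter Slc6a11, lower by -0.47 log2. Without the SST line edgeR called 0 members, beside 0.141% of genes, with Atg4a at 0.42 and Optn at 0.055 log2 (adjusted p 0.758 and 0.861).

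Cerebellar total RNA was where members were called: 9 higher and 3 lower, beside 12.0% and 12.5% of 14477 genes. DESeq2 called 12 higher and 4 lower, beside 34.4% of genes, and 27 members had an unadjusted p under 0.05, beside 44.4%. The median of the members was 0.23 log2 and that of all genes -0.01. As described, the libraries of the vGluT2 line are split by GC index in the same way as by genotype, and across genes the fold change correlated with GC percent at 0.61 and with log2 length at -0.40. Each of the 3 members called lower had a transcript under the median GC of all genes, and each of the 9 called higher one above it, from 50.8% in Gabarap to 63.1% in Map1lc3a.

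In the initiation complex, Ulk1 ran from 95.2 over 126 to 167 CPM in controls and from 124 over 193 to 227 in HD, a fold change of 0.42 ± 0.13 log2 (adjusted p 0.0354, 6 of 7 above the control median). Rb1cc1 ran from 24.9 over 60.5 to 66.1 CPM in controls and from 10.01 over 19.9 to 52.8 in HD, at -1.17 ± 0.38 log2 (adjusted p 0.0396, 7 of 7 below). Within 1 complex the kinase was thus called higher and its scaffold lower, and the other genes of the complex were not called. With the GC index as a covariate, Ulk1 stood at 0.20 and Rb1cc1 at -0.32 log2, neither called by edgeR (adjusted p 0.322 and 0.399). Ambra1 ran from 47.7 over 61.3 to 75.8 CPM in controls and from 62.3 over 78.3 to 105 in HD, at 0.35 ± 0.12 log2 (adjusted p 0.0436, 7 of 7). The conjugation enzyme Atg10 ran from 6.65 over 9.24 to 11.5 CPM in controls and from 3.35 over 4.64 to 8.65 in HD, at -0.94 ± 0.25 log2 (adjusted p 0.0297, 7 of 7 below). The protease Atg4d ran from 39.6 over 51.3 to 68.2 CPM in controls and from 44.6 over 81.3 to 121 in HD, at 0.55 ± 0.17 log2 (adjusted p 0.0354, 6 of 7). All of these overlapped between genotypes.

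Of the 5 ATG8 genes 3 were higher. Gabarap ran from 136 over 150.5 to 204 CPM in controls and from 155 over 254 to 327 in HD, a fold change of 0.55 ± 0.14 log2 (adjusted p 0.0280, 7 of 7 above the control median). Gabarapl1 ran from 382.5 over 457 to 534 CPM in controls and from 459 over 623 to 787 in HD, at 0.36 ± 0.10 log2 (adjusted p 0.0319, 7 of 7). Map1lc3a ran from 113 over 137 to 235 CPM in controls and from 122 over 255 to 342 in HD, at 0.63 ± 0.20 log2 (adjusted p 0.0399, 6 of 7). The lowest HD values lay inside the control range in each.

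Of the receptors, Sqstm1 (ENSMUSG00000015837.15, chromosome 11, bases 50199366 to 50210827) read 456, 320.0 and 446 CPM in the Gad2-line controls, 298, 324, 394 and 311 in the vGluT2-line controls, 422 (replicate 1), 584 and 369 in the Gad2-line HD libraries, and 711, 565, 683 and 615 in the vGluT2-line HD libraries. High were all 4 HD libraries of the vGluT2 line and HD replicate 2 of the Gad2 line, above every control, and the other HD libraries lay among the controls. The fold change was 0.55 ± 0.14 log2 (adjusted p 0.0280, 7 of 7 above the control median). Tax1bp1 went the other way, from 68.2 over 113 to 126 CPM in controls and from 24.8 over 59.3 to 119.7 in HD, at -1.02 ± 0.33 log2 (adjusted p 0.0403, 6 of 7 below). Calcoco1 ran from 41.2 over 46.1 to 61.9 CPM in controls and from 48.4 over 72.4 to 83.3 in HD, at 0.39 ± 0.12 log2 (adjusted p 0.0384, 7 of 7). The factor Tfe3 ran from 33.3 over 42.8 to 59.8 CPM in controls and from 42.9 over 68.7 to 93.5 in HD, at 0.54 ± 0.15 log2 (adjusted p 0.0308, 7 of 7).

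**Figure D4:**
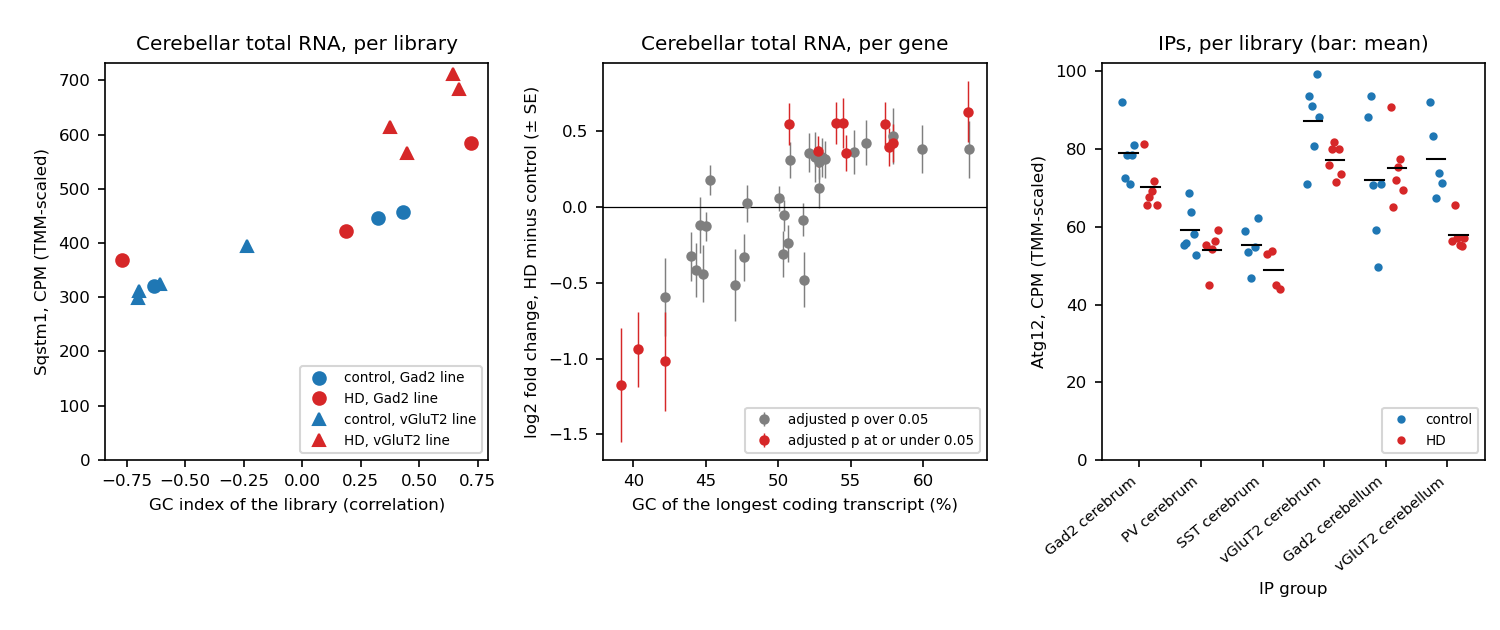
Left, Sqstm1 in TMM-scaled CPM against the GC index of each cerebellar total RNA library; middle, log2 fold change (± SE) of each member there against the GC percent of its transcript; right, Atg12 in TMM-scaled CPM in each IP library, with bars at group means. In the vGluT2 line Sqstm1 reads 298 to 394 CPM in controls and 565 to 711 in HD libraries, and Atg12 in cerebellar vGluT2 HD IPs lies at 55.0 to 65.6 CPM, under all controls of that group.

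The lines were also fitted alone. In the vGluT2 line alone 19 members were called higher and 12 lower, beside 24.4% and 27.3% of 14630 genes. In the Gad2 line alone edgeR called 0, beside 0.0% of 14226 genes, with 0 members at unadjusted p under 0.05, and DESeq2 was not run within a line. Sqstm1 stood at 0.83 ± 0.12 log2 in the vGluT2 line (adjusted p 0.000483, 4 of 4 above all its controls) and at 0.17 ± 0.19 in the Gad2 line. Rb1cc1 stood at -1.98 ± 0.25 log2 in the vGluT2 line (adjusted p 0.000255, 4 of 4 under all its controls) and at -0.09 ± 0.46 in the Gad2 line. The difference between the lines, tested after the data were seen, called 0 members by edgeR, beside 1.64% of genes, with 17 at unadjusted p under 0.05, beside 28.9%, and the lowest adjusted p, 0.0596, for Atg4a at -1.39 log2. It called 7 without control replicate 2 of the Gad2 line, 11 without its HD replicate 2 and 2 without HD replicate 1 of the vGluT2 line, beside 2390, 3054 and 649 genes. Without TMM the median of all genes moved to -0.12 log2 and 4 members were called, beside 9.82% of genes. DESeq2 called 6, beside 12.7%, Sqstm1 and Gabarap with the more positive effect in the vGluT2 line, and Tax1bp1, Atg10, Rb1cc1 and Atg4a with the more negative one. With the GC index as a covariate edgeR called 0, beside 0.0% of genes, with 3 at unadjusted p under 0.05, and DESeq2 was not run with it.

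The GC index comes from the counts of these same libraries, and in the vGluT2 line it does not overlap between genotypes. In that line a fit with it cannot tell an HD effect from base composition, and a loss of calls is no test of either. With the GC index as a covariate edgeR called 0 of 40 members, beside 1.26% of genes, and 5 had an unadjusted p under 0.05. DESeq2 was not run with it. Sqstm1 was then at 0.27 ± 0.08 log2 (adjusted p 0.118) and Atg10 at -0.41 ± 0.13 (adjusted p 0.137). Of the 12 called without it, those that moved most toward 0 in proportion were Rb1cc1 at -0.32, Map1lc3a at 0.13 and Atg4d at 0.21 log2 (adjusted p 0.399, 0.461 and 0.399). Single libraries moved the count as well. It was 0 without control replicate 2 or HD replicate 2 of the Gad2 line, without any of the vGluT2-line controls, and without HD replicate 2, 3 or 4 of the vGluT2 line, 9 of 14 libraries in all, with 96 to 302 genes called. It was 4 without HD replicate 1 of the vGluT2 line, 10 without HD replicate 1 of the Gad2 line, 18 without control replicate 1, 24 without control replicate 3 and 31 without HD replicate 3 of that line. Genes called moved alike, to 1278, 2425, 5078, 5282 and 7408 in the same order. Without TMM 3 members were higher and 4 lower, beside 610 and 2273 of all genes (1732 and 1812 with TMM).

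Cell-type markers moved with these libraries too. Of the microglia markers 2 of 5, Tmem119 and Csf1r, were called higher, and of the astrocyte markers 1 of 7, Aqp4, lower. Of the oligodendrocyte markers 1 of 6 was higher and 2 lower. Among 9 neuronal markers Slc17a7 was higher and Gad1 and Gad2 lower. The summed microglia level, led by Csf1r, was 65.3 to 72.9 CPM in vGluT2-line controls and 105.6 to 122 in its HD libraries, but 73.9 to 83.1 and 73.4 to 87.2 in the Gad2 line. The oligodendrocyte sum, led by Mbp, was 4372 to 5195 CPM in vGluT2-line controls and 3587 to 4909 in its HD libraries, and 3985 to 4799 and 3088 to 3481 in the Gad2 line. The astrocyte sum, led by Apoe, was 3482 to 4183 CPM in vGluT2-line controls and 4139 to 4942 in its HD libraries, and 3943 to 4459 and 3357 to 4419 in the Gad2 line. The sum of the 9 neuronal markers, led by Pvalb, was 3015 to 3530 CPM in vGluT2-line controls and 3859 to 4429 in its HD libraries, and 3222 to 4026 and 2812 to 4075 in the Gad2 line. No marker of these lists was at 0. The microglia and the neuronal sum thus split the vGluT2 line by genotype, and the oligodendrocyte sum split the Gad2 line. The part of cell composition was not tested.

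Genes around the machinery were counted in 4 lists, 18 of mTORC1 and AMPK, 18 further autophagy genes, 13 of the fusion of autophagosomes with lysosomes and 24 of the lysosome. Of these 73 genes edgeR called 0 in each of the 6 IP comparisons and in cerebral total RNA. At unadjusted p under 0.05 there were 8 in cerebral Gad2, 4 in PV, 0 in SST, 3 in cerebral vGluT2 IPs, 11 in vGluT2 and 0 in Gad2 IPs of the cerebellum, and 1 in cerebral total RNA. The share of all genes at that p, in the same order, was 9.15%, 4.28%, 1.41%, 7.28%, 15.5%, 2.3% and 7.03%. DESeq2 called 0 as well, except in cerebellar vGluT2 IPs, where Psap, Lamp2 and Fundc1 were lower. Over all genes DESeq2 called 4.93% of 13487 in that group, 358 genes lower.

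In cerebellar total RNA edgeR called 12 of 24 lysosome genes higher and 0 lower, beside the 12.0% and 12.5% of all genes, with a median of 0.37 log2. DESeq2 called 15 and 0 of them, beside 2196 and 2781 of 14477 genes. Atp6ap1, an accessory subunit of the proton pump, ran from 321 over 331 to 433 CPM in controls and from 381.5 over 641.5 to 748 in HD, a fold change of 0.58 ± 0.12 log2 (adjusted p 0.0216). The pump subunit Atp6v0a1 stood at 0.56 (adjusted p 0.0280) and the protease Ctsd at 0.55 log2 (adjusted p 0.0310). HD medians of all 3 were above the highest control, while the lowest HD libraries were not.

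Counts by edgeR in the other lists likewise stand beside 12.0% and 12.5% of all genes called higher and lower. Those by DESeq2 stand beside 2196 genes higher and 2781 lower of 14477. Of the 18 mTORC1 and AMPK genes 3 were called higher, Akt1s1 at 0.58 log2, Prkag1 and Rptor, and 2 lower, Fnip2 at -0.63 and Prkab2 at -0.59 (DESeq2 4 and 6). Of the 18 further autophagy genes 4 were higher, Tex264 at 0.54 and Wdr45b at 0.52 log2 with Pink1 and Rubcn, and 1 lower, Ccpg1 at -0.56 (DESeq2 5 and 1). Of the 13 fusion genes Vps11 was higher at 0.54 log2, and Vps41 at -0.79 and Stx17, the SNARE of autophagosomes, at -0.75 were lower (DESeq2 2 and 3). Prkag1, Rptor, Pink1 and Rubcn were named after their values were seen. These calls come from the same libraries, where GC index and genotype run together in the vGluT2 line. They carry the same limit as those of the 40 members.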

How the data were processed

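The authors made estimated counts per gene with nf-core/rnaseq (STAR and Salmon on GRCm38.p6, with spike-in and HA tag sequences added), and deposited them unscaled, 1 column for each of 106 libraries. Strand setting and annotation release were not stated; 55141 of 55401 gene IDs matched GENCODE M21, which gave symbols, exon lengths and GC. Library sizes, taken without the 92 spike-ins, ran from 21905238 to 107753596 counts.

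Estimated counts were rounded and tested with edgeR 4.0.16 (R 4.3.3; TMM, quasi-likelihood F test) on genes that code for protein and whose counts averaged over 10 in the libraries of the fit, with Benjamini-Hochberg adjustment over all genes tested and calls at 0.05 or less. SE is the log2 value over the square root of F. HD was compared with control within each IP group, and in total RNA with the Cre line as covariate. Levels were compared in 1 fit over the 54 control libraries, total RNA groups weighted equally. Tables and plots used Python 3.11.15 with pandas 2.3.3, numpy 2.4.6 and matplotlib 3.10.9. The steps were tested on simulated data.

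Alternatives were DESeq2 1.42.0, its size factors, no TMM, no filter, and replicate or mouse blocks. Others were single lines, cerebral total RNA without the SST line, and total RNA of the same line. Further ones used only the groups of a contrast, or left out re-sequenced libraries or each library in turn. Chosen after seeing the data were the GC index as covariate and the difference between lines in cerebellar total RNA.

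Named in full are members called in any HD comparison and the 2 with the smallest unadjusted p in each, the 6 with the widest range over control IP groups, and in each comparison of levels up to 4 called members a direction with a log2 ratio of at least 1 in size. From the other lists up to 3 called genes a list are named. Members and lists were chosen with earlier results of these data known.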

Additional observations from a re-analysis of the deposited data

Results flagged for a closer look

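In 115 groups of 4 to 6 libraries the highest or lowest value was compared with its nearest neighbour. By Dixon's test at its 95% level 12 values stood apart, where chance gives about 1 in 20 groups. No explanation was weighed for them.

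Among members, Gabarap read 156 CPM in HD replicate 4 of the SST IPs, next to 93.4 in the nearest library. Nbr1 was lowest in HD replicate 1 of the cerebral vGluT2 IPs, at 87.1 CPM against 108.3 in the next. Atg12 read 65.6 CPM in HD replicate 2 of the cerebellar vGluT2 IPs, next to 57.2. In cerebellar total RNA of the vGluT2 line, HD replicate 1 was highest for Tfe3, at 93.5 CPM next to 69.8, and for Atg4d, at 121 CPM next to 81.8. In controls of that line Ulk1 was lowest in replicate 4, at 95.2 CPM against 123, and Map1lc3a highest in replicate 3, at 175 CPM next to 117.

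The GC index was 0.71 in control replicate 6 of the PV IPs, next to -0.07. Depth stood apart in 4 libraries. Control replicate 3 of the SST IPs held 40913915 counts, next to 31514507, and control replicate 2 of the cerebral vGluT2 IPs 68022516, next to 43035667. The re-sequenced HD libraries of the cerebellar Gad2 and PV IPs held 93692505 counts, next to 46394707, and 107753596 counts, next to 52739849.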

How the results depend on the processing

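Each named member value was recomputed under the alternatives, 2572 values for 60 results: 2419 kept their direction and side of the threshold, 149 lost and 2 gained the call, and 2 reversed, Atg4a at -0.022 and Optn at -0.19 log2 in cerebral total RNA of the PV line alone, neither of which was called. The cause of the changes was not tested.

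In cerebellar vGluT2 IPs 0 members were called, but 1 with DESeq2 and 1 with the GC index as covariate. In cerebellar total RNA 12 were called, 9 higher and 3 lower. Without TMM there were 7, 3 of them higher. With the GC index there were 0 in either direction, and 0 in the Gad2 line alone, against 31 in the vGluT2 line alone, 19 higher and 12 lower. Leaving out 1 library gave 0 to 31, with 0 to 20 higher and 0 to 11 lower. For the difference between lines, 0 became 6 with DESeq2, 4 without TMM and 0 to 11 with 1 library left out.

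Among levels, cerebral Gad2 IPs against total RNA of the same line alone gave 15 members, 7 of them higher, in place of 26 and 14. Cerebellar Gad2 IPs gave 8 higher without TMM, and 5 lower with same-line total RNA or only the groups of the contrast, and 5 to 9 lower with 1 library left out. Cerebral vGluT2 against Gad2 IPs gave 2 higher without TMM, and 5 to 9 members, 3 to 6 of them higher, with 1 library left out.

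In the 6 IP comparisons edgeR's count of 0 members held with the replicate number as a block. Members at unadjusted p under 0.05 did move with it. They were 9 in place of 4 in cerebral Gad2, 4 in place of 0 in cerebral vGluT2 and 2 in place of 0 in PV IPs. In SST and cerebellar Gad2 IPs they stayed at 0, and in cerebellar vGluT2 IPs at 5. The share of all genes at that p with the block is not given here. Genes called moved more than members: DESeq2 called 665 of them in vGluT2 IPs of the cerebellum and 25 in those of the cerebrum, 75 in cerebral Gad2 IPs and 42 in PV IPs. Libraries paired by number correlated over 0.1 in 15 of 29 pairs, so the pairing is itself uncertain.

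A member not called is not shown to be unchanged.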
